A study of Mus musculus with 7 samples.

Results

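Il7r, Flt3 and Ly6d encode 3 surface proteins of lymphoid progenitors, and they were followed over all 7 arrays of a mouse bone marrow transplant series. The members are the probe sets annotated to exactly 1 of these symbols. There were 3 of them, 1 per gene, among 16255 probe sets of 8378 genes. The arrays hold marrow of transplanted mice. Recipients of marrow with a mock control transgene gave 3 arrays and recipients of marrow with an ABCG2 transgene gave 2, all from unsorted cells. EZH2-Mt marrow with an MDS-like state (MDS stands for myelodysplastic syndrome) gave 1 array of sorted GFP-negative and 1 of sorted GFP-positive cells, GFP being green fluorescent protein. The labels call each GFP fraction a control and do not say whether both came from 1 mouse. The comparisons here set ABCG2 marrow and each EZH2-Mt fraction against the mock arrays, which they share. The sources used here name no strain, age, time after transplant, EZH2 change or promoter driving a transgene. Mice are not numbered, so the spread between arrays of a group may be technical in part, and the arrays with GFP sorting have no replicate.

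The interleukin-7 receptor chain made by Il7r pairs with the common gamma chain and signals through Jak kinases and Stat5, and B and T cell precursors of the mouse need it. Flt3 is a receptor tyrosine kinase of multipotent and lymphoid progenitors, and its ligand supports the making of lymphocytes and dendritic cells. Ly6d is a small protein held on the membrane by a lipid anchor. Among common lymphoid progenitors it marks those committed to the B lineage, and plasmacytoid dendritic cells and B cells carry it too.

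Il7r (gene ID 16197) lies on chr15:9506159-9529941, Flt3 (14255) on chr5:147330741-147400489 and Ly6d (17068) on chr15:74762056-74763567 in GRCm38.p6. RefSeq promoter sequence was matched for 2 of the 3 genes, Il7r and Flt3. It is shown because these receptor genes were both higher on the ABCG2 arrays than on the mock arrays, and because their levels parted on the EZH2-Mt arrays. Both genes lie on the minus strand, and the sequences read 5′ to 3′ along the gene. Capitals mark E-boxes (CANNTG, bound by E proteins such as the Tcf3 product), an ETS motif (GGAAGT, printed as its reverse complement) and a STAT motif (TTCNNNGAA), searched on both strands. The ETS motif is bound by factors such as the Spi1 product, and shorter GGAA stretches were not searched. The first line is the stretch ahead of the annotated Il7r gene, chr15:9529942-9530126. The middle line is a window of 30 bases inside the gene's annotated span, chr15:9529905-9529934. The last line is chr5:147400490-147400739.
Il7r, upstream: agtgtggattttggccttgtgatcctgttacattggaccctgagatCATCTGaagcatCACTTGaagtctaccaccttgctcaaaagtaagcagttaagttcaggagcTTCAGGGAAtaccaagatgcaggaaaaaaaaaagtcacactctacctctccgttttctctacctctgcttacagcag
Il7r, near the start: tttgctcagACTTCCtgtttctggCACTTG
Flt3, upstream: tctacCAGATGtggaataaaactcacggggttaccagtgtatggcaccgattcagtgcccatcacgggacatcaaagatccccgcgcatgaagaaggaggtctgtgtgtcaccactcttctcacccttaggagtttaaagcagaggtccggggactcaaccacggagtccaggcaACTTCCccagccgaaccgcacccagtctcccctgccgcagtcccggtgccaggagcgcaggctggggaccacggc

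In the 250 bases before the start site, each promoter held 1 match to GGAAGT. It began 49 bases before the start in Il7r and 75 bases before it in Flt3. Of 32851 RefSeq promoter stretches of that length, 19.7% hold at least 1. Il7r held 3 E-boxes, beginning 204, 192 and 34 bases before the start, and Flt3 held 1, at 245 bases. Of all stretches, 66.2% hold 1 or more. The Il7r start used here lies inside the gene's annotated span, and so do its ETS match at 49 bases and its E-box at 34. The Flt3 start lies at the edge of its span. The STAT motif, found in 7.02% of stretches, was present in Il7r, at 142 bases, and absent from the Flt3 stretch. The palindromic EBF1 motif (0.779% of stretches), a RUNX motif (TGTGGT, 14%) and a forkhead motif (GTAAACA, 3.17%) had 0 matches in both. These are matches of letters only. No binding was measured in this series.

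The values are log2 signals from which the median of each probe set over the 7 arrays had been subtracted by the authors. A value of 0 therefore marks the middle array of a probe set and not an absent transcript, and levels cannot be compared between genes. Only probe sets called Present or Marginal on all arrays are in the table, so all 3 members were detected in every marrow sample, mock marrow included. In bulk marrow, fewer cells of a type and less RNA per cell cannot be told apart.

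Il7r read -4.84, -3.74 and -4.26 on the mock arrays and 1.35 and 1.95 on the ABCG2 arrays. On the EZH2-Mt arrays it read 1.43 in GFP-negative and 0 in GFP-positive cells. The mock arrays were the low ones, and all 4 other arrays lay above them with no overlap. The mean was -4.28 ± 0.55 in mock (SD, n = 3) and 1.65 ± 0.42 in ABCG2 marrow (SD, n = 2), a difference of 5.93, or 61.1-fold. Against the mock mean the GFP-negative array was 52.4-fold and the GFP-positive array 19.4-fold higher, and quantile normalization moved these log2 differences from 5.71 to 6.41 and from 4.28 to 4.68. The GFP-negative value lay between the ABCG2 values, and the GFP-positive value was 2.70-fold below the GFP-negative one.

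Flt3 read -1.18, 0 and -0.46 on the mock arrays and 2.28 and 2.31 on the ABCG2 arrays. It read -0.08 in GFP-negative and 0.26 in GFP-positive EZH2-Mt cells. Here the ABCG2 arrays were the high ones, and mock and EZH2-Mt arrays lay together below them. The mean was -0.55 ± 0.59 in mock (SD, n = 3) and 2.30 ± 0.02 in ABCG2 marrow (SD, n = 2), which is 7.16-fold higher. The log2 difference of 2.84 became 2.23 with quantile normalization. The GFP-negative value fell within the range of the mock arrays. The GFP-positive value exceeded the highest mock array by 0.26, less than the mock range of 1.18.

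Ly6d read 0, -0.16 and -0.92 on the mock arrays and 5.40 and 5.62 on the ABCG2 arrays. It read -0.20 in GFP-negative and 0.66 in GFP-positive EZH2-Mt cells. As for Flt3, the ABCG2 arrays were high and the other 5 lay together. The mean was -0.36 ± 0.49 in mock (SD, n = 3) and 5.51 ± 0.16 in ABCG2 marrow (SD, n = 2), or 58.3-fold higher. The log2 difference of 5.86 became 4.51 with quantile normalization. The GFP-negative value was inside the mock range. GFP-positive cells were 2.02-fold above the mock mean and 1.81-fold above GFP-negative cells, from single arrays.

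**Figure D1:**
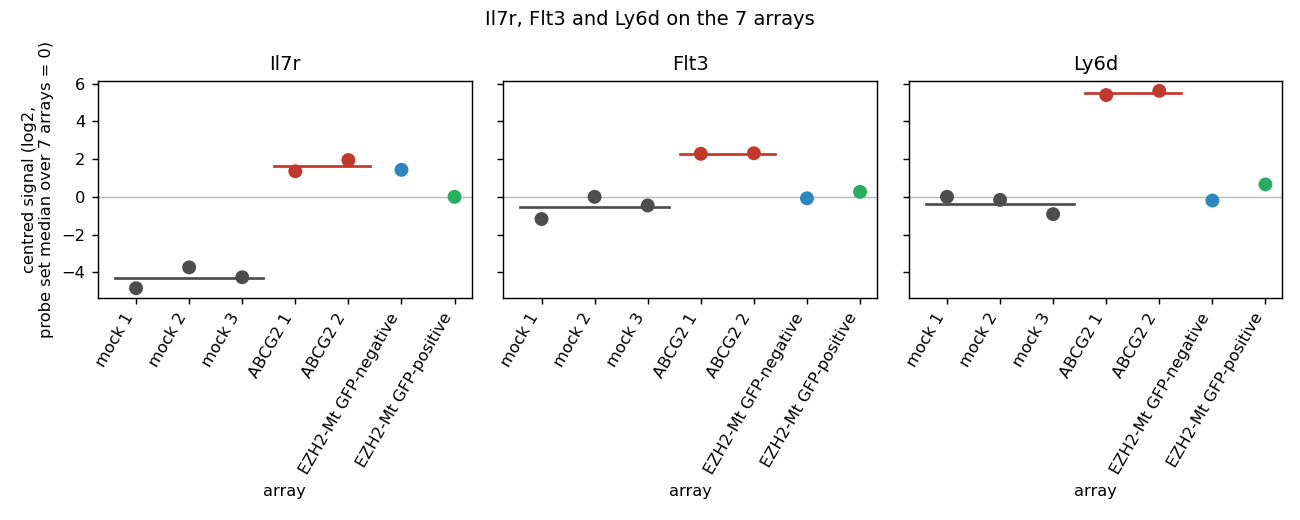
Centred log2 signal (vertical axis) of Il7r, Flt3 and Ly6d on each of the 7 arrays (horizontal axis), 1 point per array, with horizontal bars at the mock and ABCG2 means. Il7r is low on the 3 mock arrays, from -4.84 to -3.74, and at 0 or above on the other 4, while Flt3 and Ly6d are at 2.28 or above on the 2 ABCG2 arrays and at 0.66 or below on the other 5.

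The 3 genes were chosen by their values on these same arrays, among them the differences from mock marrow, so their differences are a description and no test is given for them. Over all probe sets, 31.5% were called higher and 25.3% lower in ABCG2 than in mock marrow by limma at an adjusted p under 0.05. The ABCG2 arrays lay wholly above the mock arrays in 40.6% of probe sets, so the absence of overlap alone sets no member apart. Counted down from the largest rise, Il7r ranked 3 and Ly6d 4 among 16255 differences, after Socs2 and Apold1, and Flt3 ranked 146. Some falls were larger in size than these rises, such as those of Mmp8 (-6.71) and Mpo (-6.68).

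The EZH2-Mt arrays separate the members. They hold sorted and the mock arrays unsorted cells, so sorting and EZH2-Mt cannot be told apart there. Relative to the mock mean, 4.1% of probe sets were 2-fold or more higher and 2.34% lower in GFP-negative cells, and 7.97% higher and 4.2% lower in GFP-positive cells. Counted down from the largest rise, Il7r ranked 4 of 16255 in GFP-negative and 5 in GFP-positive cells. Flt3 (0.47 and 0.81 above the mock mean in GFP-negative and GFP-positive cells) lay under 2-fold in both fractions (1.06 in GFP-positive cells with quantile normalization, which is over 2-fold), and Ly6d (0.16 and 1.02) reached 2-fold in GFP-positive cells alone. Between the fractions, Il7r was lower in GFP-positive cells by a difference of -1.43, Flt3 differed by 0.34 and Ly6d by 0.85. For comparison, 3.09% of probe sets were 2-fold or more higher and 2.04% lower in GFP-positive than in GFP-negative cells.

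**Figure D2:**
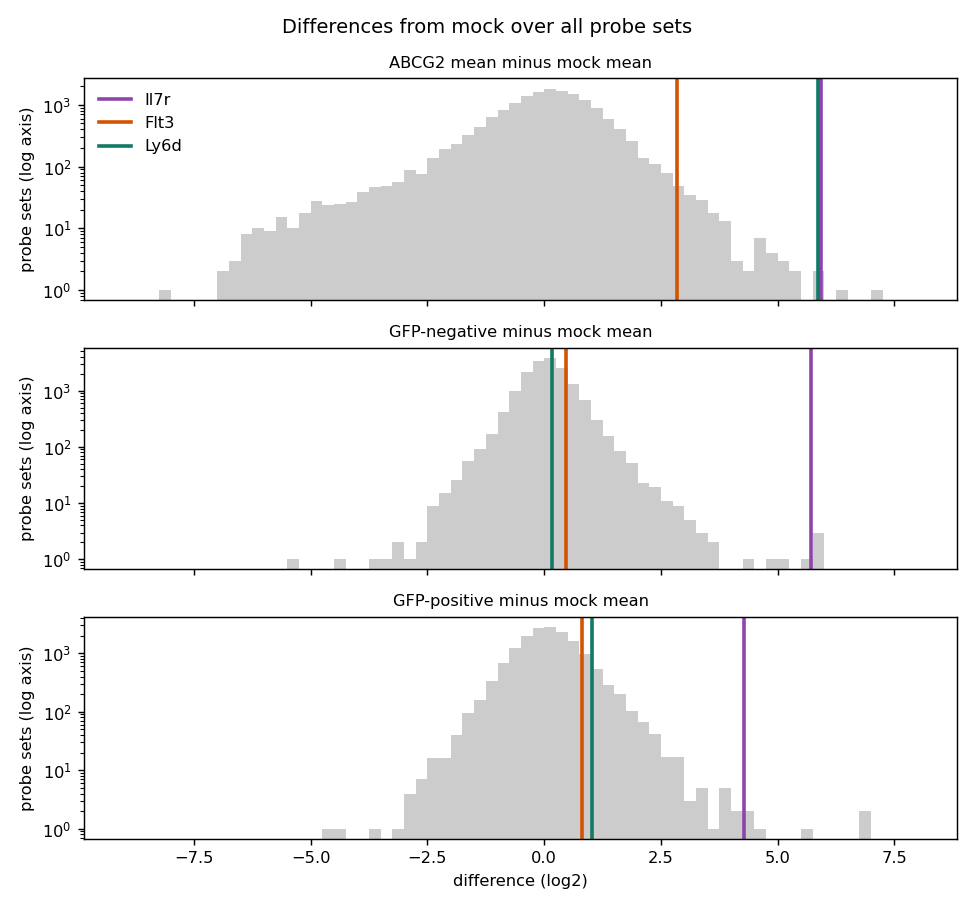
Histograms of the differences (log2, horizontal axis) of all 16255 probe sets between ABCG2 and mock means, the GFP-negative array and the mock mean, and the GFP-positive array and the mock mean, with the number of probe sets on a log axis and a line for each member. The Il7r line lies near the right end in all 3 panels (5.93, 5.71 and 4.28), while the Flt3 and Ly6d lines move into the bulk in the lower panels.

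The shape that Il7r shows, with all mock arrays below all other arrays, was found in 13.2% of probe sets. With a gap of more than 2 in log2 it was found in 7 of 16255, and the gap of Il7r was 3.74. Of the 7, 1 is Il7r, 2 belong to Bpgm, an enzyme of 2,3-bisphosphoglycerate metabolism in red cells, 1 belongs to Prxl2a (both named after their values were seen), and 3 have no single gene symbol. The shape of Flt3 and Ly6d, with both ABCG2 arrays above the other 5, was found in 31.3% of probe sets. A gap at least as wide as that of Flt3, 2.02, was found in 149 probe sets, and one at least as wide as that of Ly6d, 4.74, in 3.

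Spike-in controls moved with the same groups. The bacterial transcripts made to be added before labelling (dap, lys, phe and thr, 24 probe sets) had a median of 0 on each mock array, -1.04 and -1.49 on the ABCG2 arrays, 1.79 in GFP-negative and 3.50 in GFP-positive cells. The hybridization control bioB (4 probe sets) lay at -3.07 and -3.20 on the ABCG2 arrays and at 0.99 and 2.47 on the EZH2-Mt arrays, against -0.03 to 0 on mock arrays. The other hybridization controls (bioC, bioD and cre, 12 probe sets) lay nearer to mock on the ABCG2 arrays, at -0.21 and -0.33, and at 0.91 and 2.14 on the EZH2-Mt arrays. The 3 probe sets of Gapdh kept for quality control had medians of -0.66 and -0.40 on the ABCG2 arrays. Il7r, Flt3 and Ly6d were high where these ABCG2 controls were low, and the part of these array differences in the members' values was not tested. The titles of the ABCG2 arrays also carry a tag that other titles lack. If it marks a batch, batch and transgene cannot be told apart.

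Socs2, Pim2, Cish, Bcl2 and Ccnd2, known targets or effectors of Stat5 and IL-7 receptor signalling, rose in ABCG2 marrow, and the receptor partner gene Crlf2 and the kinase gene Jak1 fell. Of 25 measured genes of the pathway other than Il7r, 13 rose and 7 fell (limma, adjusted p under 0.05), with a median difference of 0.60. Over all 8378 genes, 35.6% rose and 26.2% fell, with a median of 0.15. Among the partners of the receptor, Crlf2, the thymic stromal lymphopoietin receptor chain that also pairs with the Il7r product, fell by 2.48 ± 0.43 (SE, adjusted p = 0.00294). The kinase gene Jak1 fell by 0.89 ± 0.14 (adjusted p = 0.00208) and the signal transducer gene Stat5b by 0.62 ± 0.17 (adjusted p = 0.0176), while Stat5a (-0.00 ± 0.22) and Tyk2 (-0.05 ± 0.19) did not pass. The ligand genes Il7 and Tslp, the common gamma chain gene Il2rg and Jak3 are not analysed here.

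Among targets and effectors, Socs2, an inhibitor of cytokine receptors, read -1.36, 0 and -0.34 on mock and 6.61 and 6.65 on ABCG2 arrays, with 1.61 in GFP-negative and -0.63 in GFP-positive cells. The survival kinase gene Pim2 read -0.87, -0.03 and -0.50 on mock and 3.83 and 4.31 on ABCG2 arrays, with 0.93 in GFP-negative and 0 in GFP-positive cells. Both had the ABCG2 arrays far above all others, as Flt3 and Ly6d did, and GFP-negative cells above GFP-positive cells, as Il7r did. Socs2 rose by 7.20 ± 0.38 and Pim2 by 4.53 ± 0.27 (limma, adjusted p = 2.81e-05 and 4.23e-05). Cish, a Stat5-induced inhibitor, rose by 3.25 ± 0.16, the survival gene Bcl2 by 3.14 ± 0.25 and the cyclin gene Ccnd2 by 2.95 ± 0.18 (adjusted p from 2.49e-05 to 0.000118).

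The other falls among the largest 5 were in Mcl1, another survival gene (-1.02 ± 0.17, adjusted p = 0.00259), the cell cycle inhibitor gene Cdkn1b (-0.66 ± 0.19, adjusted p = 0.0220) and Stat5b, all by limma. The 7 falls became 4 without mock replicate 1, 3 without mock replicate 2 and 4 without ABCG2 replicate 2, with Cdkn1b and Stat5b among those lost each time. The 13 rises became 8 with quantile normalization, which also ended the Stat5b call (adjusted p = 0.0821). In the EZH2-Mt fractions the 25 genes had median differences from mock of 0.25 in GFP-negative and 0.11 in GFP-positive cells, with 3 higher and 0 lower by 2-fold or more in GFP-negative and 2 higher and 2 lower in GFP-positive cells. Of all genes, 2.46% were 2-fold or more higher and 2.12% lower than mock in GFP-negative cells, and 4.33% higher and 3.03% lower in GFP-positive cells.

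FLT3 signalling genes changed both ways. Of 24 measured genes other than Flt3, 6 rose (25%) and 9 fell (37.5%) in ABCG2 marrow, with a median of -0.26, against 35.6% and 26.2% of all genes and a median of 0.15. The kinase gene Map2k1 of the MAP kinase cascade fell by 1.80 ± 0.19, the tyrosine kinase gene Syk by 1.30 ± 0.14 and Ptprj, a receptor phosphatase that acts on the FLT3 protein, by 1.30 ± 0.15 (limma, adjusted p from 0.000344 to 0.000536). The adaptor genes Gab2 (-1.10 ± 0.15) and Shc1 (-0.88 ± 0.17) fell as well. The rises were led by Cblb, a ubiquitin ligase of activated receptors (1.71 ± 0.30, limma, adjusted p = 0.00300), followed by the kinase gene Pim1 (1.08 ± 0.24), the phosphatase gene Ptpn11 (0.88 ± 0.13) and the kinase subunit genes Pik3ca (0.72 ± 0.18) and Pik3r1 (0.60 ± 0.14). Of these 5, Cblb alone kept its call with quantile normalization, under which 1 gene of the list rose and 5 fell. The ligand gene Flt3l is not analysed here. In both EZH2-Mt fractions 0 of the 24 genes lay 2-fold or more from the mock mean, and the shares of all genes that did are low too (2.46% higher and 2.12% lower in GFP-negative cells, 4.33% and 3.03% in GFP-positive cells).

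**Figure D3:**
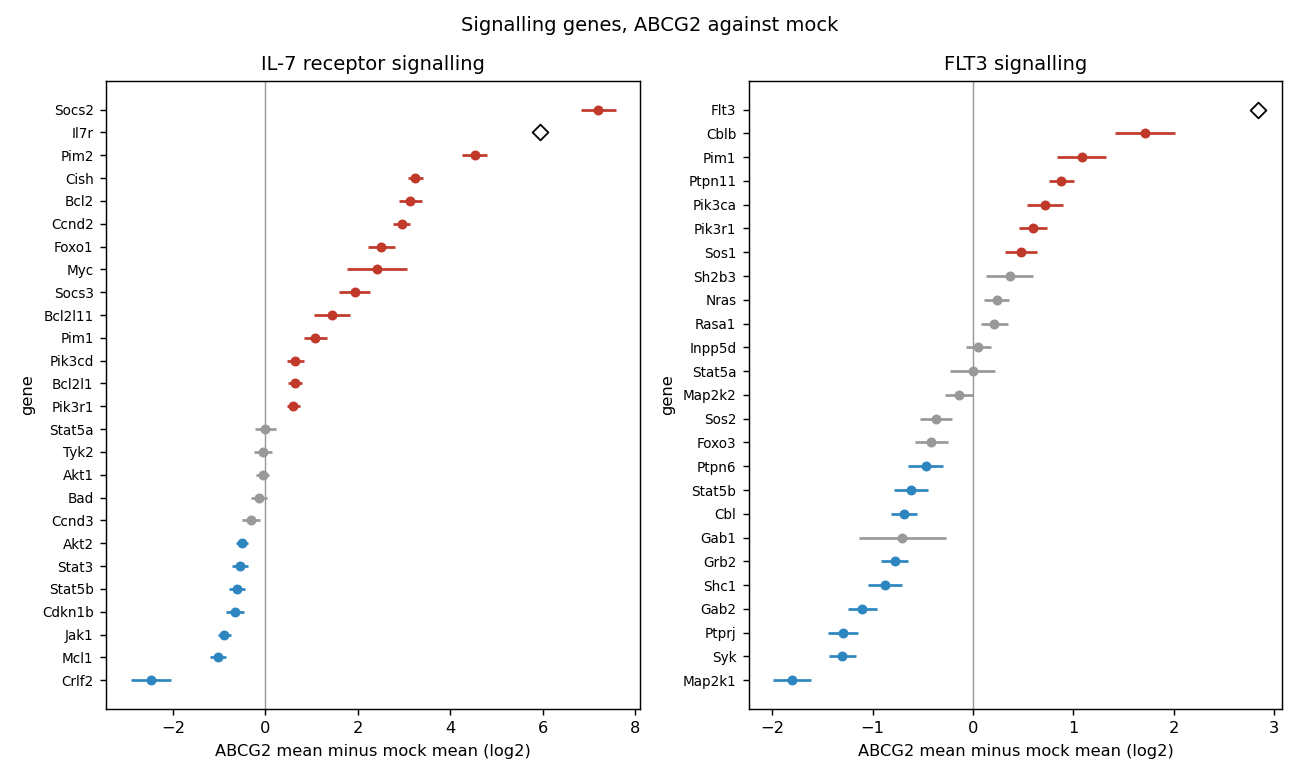
Differences between ABCG2 and mock means (log2, horizontal axis) of the measured genes of IL-7 receptor signalling (left) and FLT3 signalling (right), with points in red for rises, in blue for falls, in grey for genes that did not pass limma's test, and bars for the standard error. The open diamonds are Il7r (5.93) and Flt3 (2.84), shown with no error because they were not tested, and on the left Socs2 at 7.20 lies above Il7r.

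None of the measured relatives of Ly6d rose in ABCG2 marrow. The Ly6 and uPAR proteins share a fold of disulfide-linked loops and are mostly lipid-anchored. Of 31 other family genes, 4 were measured, of which 3 fell and 0 rose (median -1.82). Over all genes 26.2% fell and 35.6% rose, with a median of 0.15. Cd177, a neutrophil surface protein, fell by 6.02 ± 0.43 (limma, adjusted p = 7.72e-05), the urokinase receptor gene Plaur by 2.65 ± 0.55 (adjusted p = 0.00590) and the complement inhibitor gene Cd59a by 0.98 ± 0.23 (adjusted p = 0.0101). Ly6e did not pass (0.10 ± 0.16). Cd177 is also 1 of the 12 neutrophil markers given below, all of which fell. The Cd59a call was lost with quantile normalization (limma, adjusted p = 0.165) and without ABCG2 replicate 2. Cd59a was 2.04 above the mock mean in GFP-positive and 0.47 above it in GFP-negative cells. In GFP-positive against GFP-negative cells 1.77% of all genes were 2-fold or more higher, Cd59a among them, and 1.34% lower.

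Sox4, Foxo1, Bcl11a and the E protein genes led the rises in the lymphoid progenitor programme, and Spi1 led the falls. Without the members, 23 of its 40 genes were measured, and 12 rose (52.2%) and 4 fell (17.4%), with a median of 0.86. The shares of all genes were 35.6% higher and 26.2% lower, with a median of 0.15. Sox4, a transcription factor of early B and T cells, read -0.68, -0.25 and 0.09 on mock and 2.10 and 2.62 on ABCG2 arrays and rose by 2.65 ± 0.26. Foxo1, which activates Il7r transcription in lymphocytes, read -0.77, -0.74 and -1.16 on mock and 2.10 and 1.14 on ABCG2 arrays and rose by 2.51 ± 0.30. Neither gene had a mock array above an ABCG2 array, which sets neither apart, since 40.6% of all probe sets had the ABCG2 arrays wholly above. Bcl11a, needed for lymphoid development, rose by 2.37 ± 0.18, and the E protein genes Tcf3 and Tcf12 rose by 2.14 ± 0.17 and 1.86 ± 0.14. For these 5 genes limma gave adjusted p from 9.33e-05 to 0.000577. Quantile normalization left 8 of the 12 rises, these 5 among them.

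In the other direction Spi1, whose product PU.1 binds ETS motifs and activates Il7r in lymphoid and Csf1r in myeloid cells, read 0.39, 0.37 and 0.34 on mock and -2.43 and -2.44 on ABCG2 arrays. It fell by 2.80 ± 0.12 (limma, adjusted p = 1.4e-05), so the ABCG2 arrays were high for Il7r and low for Spi1. Nfil3 (-1.43 ± 0.15), Cd24a (-0.90 ± 0.21) and the repressor gene Gfi1 (-0.58 ± 0.20) fell too. Leaving out mock replicate 1 or 3 or either ABCG2 replicate ended the Gfi1 call (limma, adjusted p from 0.0587 to 0.158), and quantile normalization ended those of Gfi1 and Cd24a. Ikzf1 (0.04 ± 0.13), Runx1 (0.16 ± 0.13) and Myb (0.29 ± 0.19), all regulators of early progenitors, did not pass. Genes that define pro-B cells by their products, among them Rag1, Rag2, Dntt, Igll1, Vpreb1, Ebf1 and Pax5, are not analysed here.

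On the EZH2-Mt arrays the median difference of these regulators from mock was 0.20 in GFP-negative and 0.10 in GFP-positive cells, with 1 gene 2-fold or more higher and 2 lower in GFP-negative cells and 0 either way in GFP-positive cells. The 3 were Cd27, higher by 1.09, and Mef2c (-1.74) and Cd93 (-1.64). Over all genes 2.46% were 2-fold or more higher and 2.12% lower in GFP-negative cells. Foxo1 read 0.05 and 0.09 there, and Spi1 read 0 and -0.05, between the mock and the ABCG2 values in both genes. Mef2c, a factor of lymphoid commitment, read -1.80 in GFP-negative and -0.88 in GFP-positive cells, below all mock arrays (-0.21 to 0.09), while it rose in ABCG2 marrow by 1.63 ± 0.20 (limma, adjusted p = 0.000647).

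More cytokine and growth factor receptor genes fell than rose in ABCG2 marrow. Of 25 other measured receptor genes 4 rose and 14 fell, with a median of -0.81, against 35.6% higher and 26.2% lower over all genes. Csf2ra, of the GM-CSF receptor, read 0.20, 0.23 and 0 on mock and -4.03 and -4.19 on ABCG2 arrays and fell by 4.25 ± 0.14. The interleukin-6 receptor gene Il6ra fell by 4.04 ± 0.21, the decoy receptor gene Il1r2 by 3.85 ± 1.05, and Csf1r, of the macrophage growth factor receptor (-3.73 ± 0.34), and Il13ra1 (-3.73 ± 0.22) fell too (limma, adjusted p from 7.33e-06 to 0.0180). The Il1r2 call was lost without any 1 mock array (limma, adjusted p of 0.0512 to 0.0519).

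The 4 receptor genes that rose were Il18r1 (3.51 ± 0.15), Pdgfrb (1.79 ± 0.24), Tgfbr2 (1.11 ± 0.39) and the interferon receptor gene Ifnar1 (0.86 ± 0.16), with limma's adjusted p from 1.31e-05 to 0.0428. The number of rises was 8 when ABCG2 replicate 2 was left out, and the Tgfbr2 call was lost without any 1 mock array or ABCG2 replicate 1. Kit, the stem cell factor receptor and a relative of Flt3 in the same kinase class, had a difference of 0.37 ± 0.14 and did not pass (limma, adjusted p = 0.0550).

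**Figure D4:**
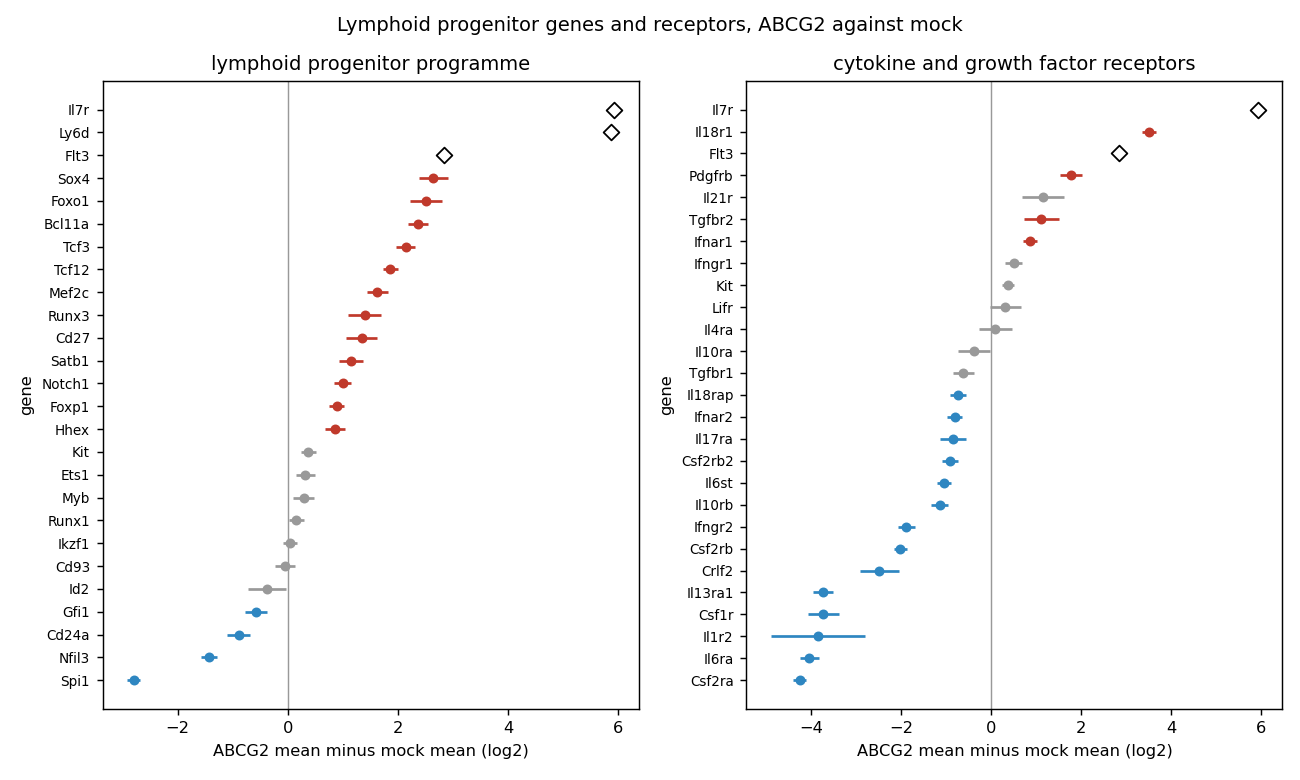
Differences between ABCG2 and mock means (log2, horizontal axis) of the measured genes of the lymphoid progenitor programme (left) and of cytokine and growth factor receptors (right), with colours and standard error bars as for the signalling genes and open diamonds for the untested members. On the left most points lie right of 0 with Spi1 at -2.80, and on the right most lie left of 0 with Csf2ra at -4.25, with Il7r and Il18r1 (3.51) at the other end.

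The 5 genes closest in pattern were found for each member by the root mean square difference between profiles over the 7 arrays, each profile minus its own mean. For Il7r they were Klrd1 (0.78), an NK cell receptor gene, Nlrc3 (1.004), Tespa1 (1.43), of T cell receptor signalling, Il18r1 (1.44) and Ablim1 (1.44). The median distance of all genes from Il7r was 2.73. All 5 had mock arrays below the other 4 arrays and a higher value in GFP-negative than in GFP-positive cells. Because closeness on these same arrays chose them, a shape shared with Il7r is built in. Their lowest mock values lay between -3.48 and -1.53, above that of Il7r.

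For Flt3 the closest genes were Zc3h7b (0.16), H2-Ob (0.16), of MHC class II loading in B cells, H2aw (0.17), Gstt2 (0.20) and Plagl1 (0.24), with a median distance of 1.21 over all genes. For Ly6d they were Grhpr (0.43), Apold1 (0.63), the B cell coactivator gene Pou2af1 (0.69), Spib (0.71), of the ETS factors, and E330020D12Rik (0.81), with a median of 2.53. Among the members themselves Flt3 and Ly6d were 1.46 apart, Il7r and Flt3 1.97 and Il7r and Ly6d 2.12. With quantile normalization 3 of the 5 genes nearest Il7r, all 5 of Flt3 and 3 of Ly6d were shared.

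**Figure D5:**
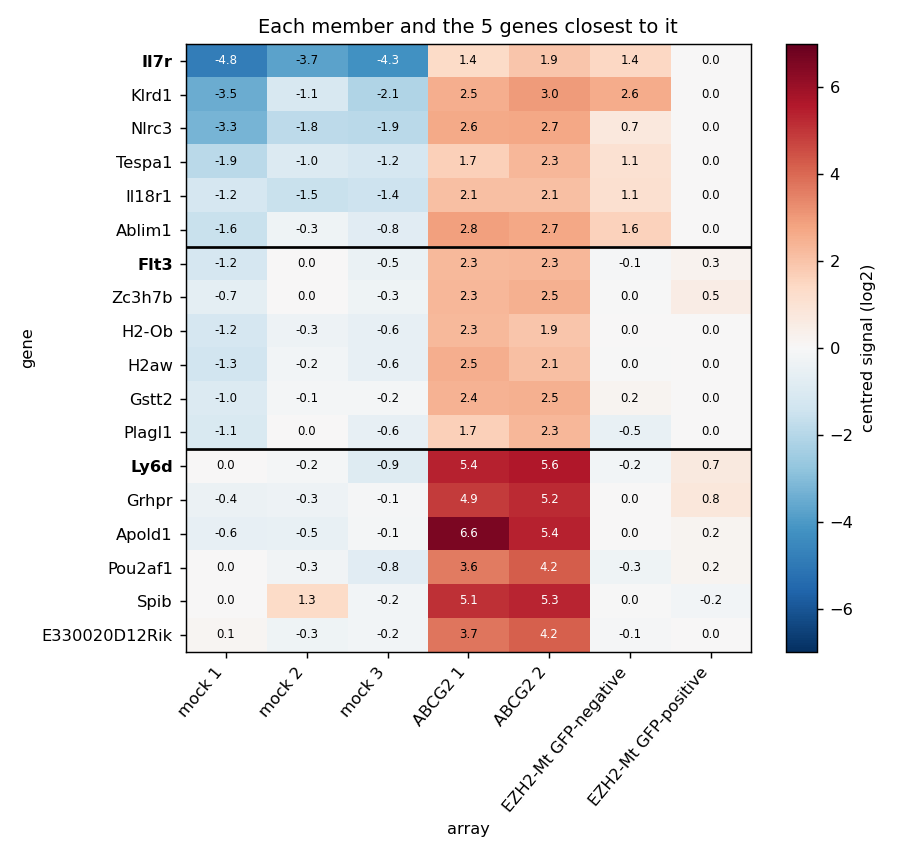
Centred log2 signal, by colour and printed number, on the 7 arrays (columns) for each member and the 5 genes closest to it (rows, in 3 blocks). The Il7r block is blue on the mock arrays, from -4.84 in Il7r to -0.30 in Ablim1, while every gene of the Flt3 and Ly6d blocks is highest on the ABCG2 arrays, and Spib reads 1.35 on mock replicate 2.

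Markers of other cells that express the members, or that make up marrow, were followed over the same arrays, and their directions differed between cell types. Of 12 measured B cell markers 6 rose and 0 fell in ABCG2 marrow, led by Spib (4.84 ± 0.44), Pou2af1 (4.28 ± 0.28), Cd79b (3.79 ± 0.25) and Cd22 (3.12 ± 0.49), with limma's adjusted p from 5.42e-05 to 0.00181. Their mean centred level ran from -0.57 to -0.09 on mock arrays, was 1.12 and 1.42 on ABCG2 arrays, and was 0.02 in GFP-negative and 0.54 in GFP-positive cells. The mean was higher in GFP-positive than in GFP-negative cells, while Cd72 (-0.96), Spib (-0.14) and Bank1 (-0.11) differed the other way. Over all genes 35.6% rose and 26.2% fell. The other 6 B cell markers did not pass in ABCG2 marrow and went both ways. Blnk (0.77 ± 0.51), Ms4a1 (0.54 ± 0.58) and Cd37 (0.26 ± 0.21) lay above mock. Ighm (-1.54 ± 0.83), Bank1 (-0.78 ± 0.33) and Cd74 (-0.26 ± 0.30) lay below it.

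Of 24 T, NK and innate lymphoid markers 4 were measured. Klrd1 (5.01 ± 0.62) and Cd28 (2.58 ± 0.70) rose while Nkg7 fell (-1.53 ± 0.21), against 35.6% higher and 26.2% lower among all genes. The mean level of the 4 markers ran from -1.93 to -0.27 on mock arrays. It was 0.54 and 0.30 on ABCG2 arrays, 1.27 in GFP-negative and 0.09 in GFP-positive cells. This mean holds 4 genes, among them Klrd1, the gene closest to Il7r. Nkg7 was 0.31 higher in GFP-positive than in GFP-negative cells, while Klrd1 (-2.58), Cd3d (-1.36) and Cd28 (-1.08) were lower. Cd3d, of the T cell receptor complex, read -1.43, 0 and 0.21 on mock, -1.12 and -0.89 on ABCG2 and 1.42 and 0.06 on GFP-negative and GFP-positive arrays and did not pass (-0.60 ± 0.47). Other defining T cell markers, Cd3e, Cd4 and Cd8a among them, are not analysed here. The call of Cd28 was lost without ABCG2 replicate 1 (limma, adjusted p = 0.0894).

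All 12 measured neutrophil markers and all 8 monocyte markers fell in ABCG2 marrow, with medians of -5.16 and -3.73. Among all genes, 26.2% were lower and 35.6% higher there. The neutrophil markers averaged -0.22 to 0.04 on mock arrays, -3.77 and -5.43 on ABCG2 arrays, 0.28 in GFP-negative and 0.98 in GFP-positive cells. Of the monocyte markers 5 were 2-fold or more below mock in each EZH2-Mt fraction. In GFP-positive cells 1 was 2-fold or more above mock. The monocyte medians were -1.36 in GFP-negative and -1.10 in GFP-positive cells. Among all genes, 2.12% were 2-fold or more lower and 2.46% higher than mock in GFP-negative cells. In GFP-positive cells the shares were 3.03% and 4.33%. Dendritic cell markers split, with Tcf4 higher (2.54 ± 0.18) and Irf8 (-2.50 ± 0.21) and Itgax (-0.99 ± 0.31) lower, and the defining plasmacytoid marker Siglech is not analysed here. Of 5 erythroid markers 1 rose in ABCG2 marrow, and all 5 were 2-fold or more higher in GFP-positive cells than in mock marrow. Of 2 stromal markers Pdgfrb rose and Vcam1 fell (-3.53 ± 0.41), and 0 of 10 epithelial markers, which would mark another known source of Ly6d, were measured. The part of any of these cells in the values of Il7r, Flt3 and Ly6d was not tested.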

How the data were processed

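The authors deposited logarithms without stating the base, read here as log2, that they had centred per probe set. Per the file headers, they come from Affymetrix Mouse430_2 arrays and were kept where raw signal lay from 3 to 120534 and flags were Present or Marginal in 100% of samples. The submitters' processing notes name MAS5. The scaling between arrays was not given in the sources used here. Of 16309 probe sets, 54 manufacturer controls were set apart. One symbol was given for 14229, several for 483 and none for 1543. A gene's value was the mean over its probe sets. ABCG2 and mock arrays were compared with limma 3.58.1 in R 4.3.3 (lmFit, eBayes, two-sided, Benjamini-Hochberg over all genes or probe sets, threshold 0.05), checked on simulated data. Values after ± are standard errors unless SD is written. The number of arrays limits precision. The EZH2-Mt arrays are single and have no p. The members and lists were chosen with earlier results of these data known, and list counts leave the members out. Named are all member probe sets, the measured receptor chains, Jak kinases and Stat5 genes, up to 5 rises and 5 falls per list and the 5 closest genes. Alternatives were quantile normalization, median centring, array weights, the replicate block, a 2-fold minimum, another probe set rule and leaving out each array. Genes named after their values were seen are Mef2c, Ikzf1, Runx1, Myb, Kit, Cd3d, Cd27, Cd72, Cd93 and the 6 B cell markers that did not pass. The same holds for genes named below only for the signs of their probe sets. The probe sets of Ly6e, Cd93, Runx1, Kit and the monocyte marker Ms4a6c disagree in sign. So do those of Stat3 (-1.34 to 0.86), counted among the IL-7 receptor falls, and Cbl (-1.51 to 0.10), among the FLT3 falls. Akt1, Ccnd3, Inpp5d, Rasa1, Id2 and Ets1, which did not pass, also have probe sets of opposite sign.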

Additional observations from a re-analysis of the deposited data

Results flagged for a closer look

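Spike-in control probe sets, which belong to no comparison, had higher medians on both EZH2-Mt arrays than on any mock array. For dap, lys, phe and thr the medians were 1.79 (GFP-negative) and 3.50 (GFP-positive), for bioB 0.99 and 2.47, and for bioC, bioD and cre 0.91 and 2.14, against medians from -0.03 to 0.06 on mock arrays. The order of these controls, GFP-positive above GFP-negative, was that of Flt3 and Ly6d and not that of Il7r.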

How the results depend on the processing

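Il7r, Flt3 and Ly6d stayed higher in ABCG2 than in mock marrow under quantile normalization, median centring and without each array in turn. Leaving out 1 array gave 5.64 to 6.23, 2.53 to 3.11 and 5.59 to 6.04. Quantile normalization was run on the values already centred per probe set. Before it, the SD over probe sets was 1.06 and 1.13 on the ABCG2 arrays and 0.33 to 0.42 on the mock arrays. It was 0.41 in GFP-negative and 0.54 in GFP-positive cells. Making these spreads equal narrows the ABCG2 arrays and widens the mock arrays by construction, so it is not an independent check of the calls. Quantile normalization gave 2.23 for Flt3 and 4.51 for Ly6d, and moved the GFP-negative difference of Il7r from mock to 6.41. With it, 1428 of 8378 genes rose and 1452 fell, in place of 2983 and 2196. Of 16255 probe sets 2112 rose and 2350 fell, in place of 5122 and 4112. Quantile normalization left 8 rises and 5 falls in IL-7 receptor signalling and 1 rise and 5 falls in FLT3 signalling. In the progenitor programme it left 8 rises, in place of 12, and 2 falls. With a 2-fold minimum, 1383 genes rose and 1194 fell, as did 2609 and 2434 probe sets. That minimum left 10 rises and 2 falls in IL-7 receptor signalling and 2 rises and 4 falls in FLT3 signalling. In the progenitor programme it left 9 rises and 2 falls. Leaving out 1 array gave 3 to 7 falls in IL-7 receptor signalling and 3 to 8 rises among receptors. The cause of these changes was not tested. Replicate numbers are shared by 2 mock and 2 ABCG2 arrays, whose deviations correlated at 0.07 and -0.06. The deviations of 2 ABCG2 arrays from their mean mirror each other. These correlations are therefore not independent and cannot decide whether the arrays were paired. With the replicate block 2572 genes rose and 1983 fell. Of 99 list genes called, quantile normalization lost 28, and leaving out 1 array lost 8 to 11. Centring, a filter on Present calls and few arrays limit what can be seen: no absolute level, no gene absent from any array.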
